A study of Mus musculus with 4 samples.

Results

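The 44 genes described here encode the glutamate and GABA receptors of the mouse. They are all autosomal protein-coding genes of the GENCODE vM21 annotation (GRCm38, mm10) whose symbols begin with Gria, Grik, Grin, Grid, Grm, Gabr or Gabbr followed by the subunit letter or number, out of 20807 autosomal protein-coding genes. The rule uses names only and no methylation value. It also takes in Grid2ip, which encodes delphilin, a scaffold protein that binds a delta receptor and is no receptor itself, so 43 of the 44 are receptor genes. Gria3, Gabra3, Gabre and Gabrq lie on the X chromosome and fall outside the rule. CpG methylation was measured by whole-genome bisulfite sequencing (WGBS) in 4 libraries, each from the brain of 1 male embryo at E11.5 (embryonic day) of the strain 129S6.cg Tet1<tm1Koh>. The 4 groups of 1 library each are Tet1 knockout (KO) and wild type (WT) on excess folic acid (FA), 30 ppm, and KO and WT on control FA, 3 ppm. All dams were Tet1 heterozygotes and all diets also held the antibiotic succinylsulfathiazole, which limits folate made by gut bacteria. The KO allele arose on another strain and was backcrossed into 129S6. In a sample list that the study gives for a further assay, the KO embryos had a neural tube defect and the WT embryos were normal, each from its own litter, so genotype, phenotype and litter cannot be told apart.

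Glutamate is the main excitatory transmitter of the brain and GABA the main inhibitory one, although GABA depolarises immature neurons. Ionotropic receptors (AMPA, kainate, NMDA and delta for glutamate, GABA-A for GABA) are ion channels built of several subunits, whereas the metabotropic glutamate receptors and GABA-B act through G proteins. Most subunit genes are switched on as neurons mature, and the E11.5 brain consists largely of dividing progenitors with the first neurons at its edges. TET1 oxidises 5-methylcytosine, a step towards its removal, and acts mainly at CpG-rich sequence near gene starts. Start-site levels were also read at marker genes of several cell types. No other tissue was measured for comparison, so these levels cannot by themselves check the tissue label. The start sites of the progenitor genes Sox1, Sox2, Pax6 and Nes were nearly free of methylation, with means over the 4 libraries of 0.676% to 1.85%. Those of the blood and endothelial genes Ptprc, Spi1, Cdh5 and Tek had means of 80.7% to 89.0%, while that of Hbb-y, an embryonic globin gene of red cells, had a mean of 58.3%. Of the muscle genes, Myog had a mean of 88.7% and Myod1 of 42.5%. Of these 11 markers 3 had an adjusted Fisher's exact p under 0.05 between KO and WT, each at 3 ppm and higher in KO, by 11.6 points for Myod1 (p = 0.00472), 9.48 for Tek (p = 0.000712) and 9.09 for Myog (p = 0.0164). Their part in the receptor gene results was not tested.

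Each gene was scored in 3 parts: the start-site window within 1 kb of the annotated gene start, the flanks from 1 to 3 kb on both sides, and the gene body beyond 3 kb. A level is the percentage of methylated reads over all CpGs of the part that had at least 5 reads in all 4 libraries, and a part needed 3 such CpGs. A difference is in percentage points, and it is called where the adjusted p of Fisher's exact test is under 0.05 and the difference is at least 10 points. Mean depth was 13.2 to 21.2 reads per CpG. With 1 library per group these tests compare libraries and not conditions, and reads of 1 molecule count at each CpG they cover, so p-values and intervals are too small. CpG islands at gene starts were poorly covered. Of 3301 CpGs in the start-site windows of the 44 genes, 818 (24.8%) could be used, and only 18.3% in the 24 genes with CpG-rich starts against 89.5% in the 7 with CpG-poor starts, so a low level at a CpG-rich start is the level of the covered part. Grik5 and Grid1 had too few covered CpGs at the start. The other 42 windows held 4 to 55 usable CpGs and 26 to 838 reads per library, which gave a median 95% Wilson half-width of 5.14 points.

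Start sites differed widely in methylation, and KO was above WT at most of them. Median levels over the 42 genes were 39.0% in KO versus 30.8% in WT at 30 ppm, and 40.3% in KO versus 26.9% in WT at 3 ppm. Both KO libraries lay above both WT libraries at 31 of 42 genes (73.8%), beside 54.1% of all genes. The KO minus WT difference had a median of 6.03 points at 30 ppm and 9.02 points at 3 ppm, beside 3.93 and 3.31 points over all genes. In each diet 14 of 42 genes (33.3%) were called higher in KO and 0 lower, where 15.4% of all genes were called higher at 30 ppm and 16.6% at 3 ppm. Those higher in both diets were 8 (19.0%, all genes 8.01%), namely Grin2c, Gabrb2, Grid2ip, Grm4, Grik2, Gabra2, Grin2a and Gabrg1. Of these, Grik2, Gabrg1, Grin2a and Grm4 lost the call in a diet when 2 or 10 reads per CpG were the minimum or the libraries were thinned to the total reads of the shallowest one. Grin2c and Grm4 had too few CpGs to be tested at 10 reads, and with 2 reads the Grin2c difference at 3 ppm fell from 22.1 to 14.3 points. In limma, the only fit with a spread between libraries (2 per genotype, diet as covariate), 9 of 42 start sites had an adjusted p under 0.05, all higher in KO (all genes 7.42%), and 6 of the 8 were among them. This fit left 1 residual degree of freedom per gene. The spread pooled over all genes weighed as 5.72 degrees of freedom at start sites, 87.0 in flanks and 15.4 in bodies. Limma p-values thus rest mainly on the pooled spread, and least of all in flanks on the gene's own libraries. The limma calls fell to 0 start sites, over all genes too, when methylated fractions replaced log2 odds or when 10 reads were required. The unadjusted limma p was then under 0.05 at 21 of 42 and 19 of 29 (all genes 28.2% and 25.7%). After the median difference of all genes was subtracted, 11 of 42 were called at 30 ppm, 8 at 3 ppm and 4 in both diets (all genes 9.33%, 10.6% and 4.83%). When the Fisher z values were divided by their robust SD over all genes, 1 of 42 was called in each diet (2.38%), no more than the 2.43% and 3.11% of all genes. Among genes of 100 kb or more, 7 of 23 receptor genes (30.4%) were called higher in KO at 30 ppm and 8 of 23 (34.8%) at 3 ppm. Of all such genes 21.2% and 21.7% were called, so the background for long genes is higher. In both diets 4 of 23 (17.4%) were called, against 11.8% of all such genes.

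**Figure D1:**
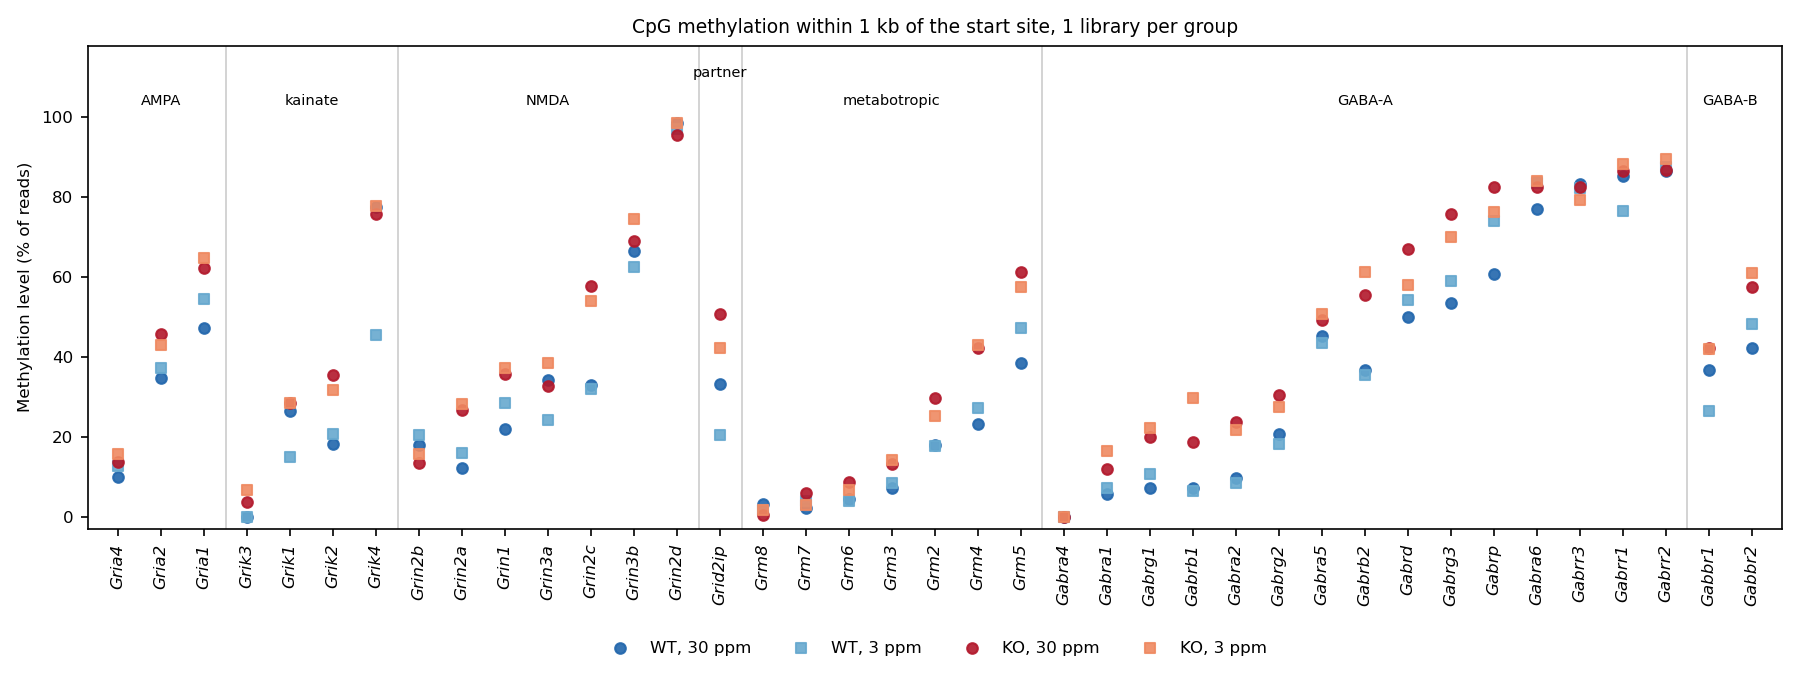
Methylation level in percent of reads within 1 kb of the start site of 39 receptor genes, grouped by family, with 1 point per library (red and orange KO, dark and light blue WT, circles 30 ppm, squares 3 ppm; no error bars, since each group is 1 library). Levels ran from 0 at Gabra4 to 97.5% on average at Grin2d, and both KO points lay above both WT points at 29 of the genes shown.

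Calls were also read by the WT level. To keep the sorting apart from the difference, genes were sorted by the WT level of the other diet. Among start sites at 10 to 60% in WT at 3 ppm, 12 of 25 receptor genes (48.0%) were called at 30 ppm, against 25.5% of all genes in that range. Sorted by WT at 30 ppm, 8 of 23 (34.8%) were called at 3 ppm, against 28.3% of all genes. Of the start sites under 10% in the other diet's WT library, 1 of 9 was called at 30 ppm and 3 of 10 at 3 ppm (all genes 7.33% and 7.17%). Of those at 60% or more, 1 of 8 and 3 of 9 were called (all genes 6.26% and 5.9%). CpG-poor starts were all above 60% in every library, and they include those of Gabrp, Gabra6, Gabrr1, Gabrr2, Gabrr3 and Grin2d.

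**Figure D2:**
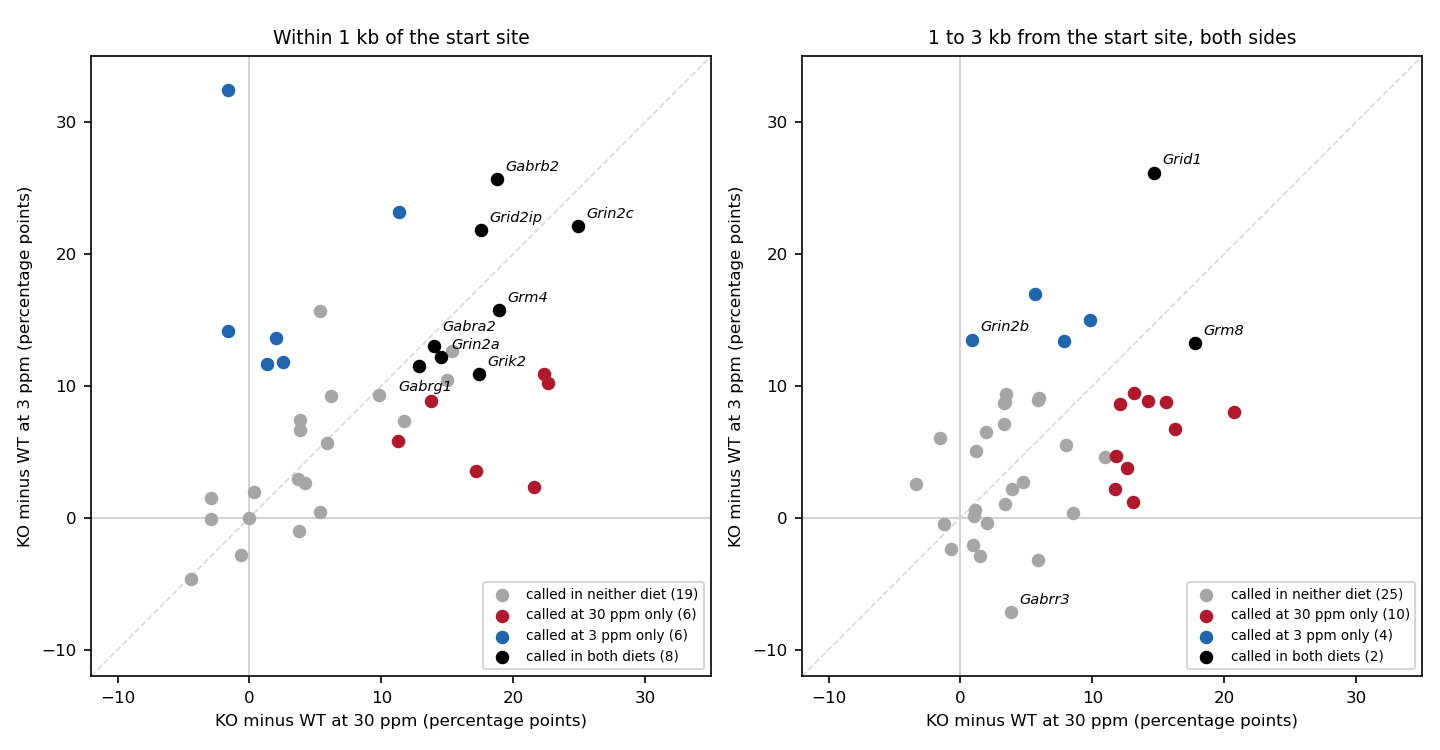
KO minus WT in percentage points at 30 ppm (horizontal) against 3 ppm (vertical) for single receptor genes, at the start site (left, 39 genes) and in the flanks (right, 41 genes); 1 library per group, dashed line equal differences, colours the calls. Of the genes shown, 8 were called in both diets at the start site and 2 in the flanks.

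In Grm8 the hyper DMRs (regions the authors called as more methylated in KO) of both diets overlapped within 3 kb of the start site. Grm8, on the minus strand of chromosome 6, encodes mGluR8, a presynaptic group III receptor that lowers cAMP. The sequences below are its 2 regions called at 30 ppm, each overlapping a region called at 3 ppm (the latter by 1 base), shown so that the CpGs behind the values can be seen. They are plus-strand GRCm38 sequence, from 5′ to 3′, with 1 base added at the end to complete the last CpG. Capitals mark the 4 CpGs of each region that had at least 5 reads in all libraries, and the fifth CpG, in lower case, did not.
Grm8 upstream region 1 (chr6:28136678-28136797): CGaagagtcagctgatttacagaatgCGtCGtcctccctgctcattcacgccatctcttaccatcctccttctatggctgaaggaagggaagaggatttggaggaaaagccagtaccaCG
Grm8 upstream region 2 (chr6:28136911-28137204): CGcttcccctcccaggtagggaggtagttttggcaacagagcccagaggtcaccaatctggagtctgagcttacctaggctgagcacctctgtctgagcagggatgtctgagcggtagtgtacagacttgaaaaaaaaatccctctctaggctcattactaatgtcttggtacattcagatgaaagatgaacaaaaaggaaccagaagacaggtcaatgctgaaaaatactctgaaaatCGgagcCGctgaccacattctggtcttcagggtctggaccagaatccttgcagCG
The values of such regions are a description, since these libraries chose them. Grm8 region 1, centred 1559 bases before the start, stood at 51.9% in KO versus 21.3% in WT at 30 ppm, and at 58.8% in KO versus 10.7% in WT at 3 ppm. Region 2, centred 1879 bases before the start, stood at 78.7% in KO versus 34.9% in WT at 30 ppm, and at 75.7% versus 50.0% at 3 ppm. All 4 usable CpGs of each region were higher in both KO libraries than in both WT libraries.

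In the flanks 3 of 44 genes were called higher in KO in both diets (6.82%, all genes 3.5%), Grid1 and Grm8 among them, and all 3 passed limma. Grid1, on chromosome 14, encodes GluD1, a delta receptor that binds cerebellin and organises synapses. Its flanks (27 usable CpGs) stood at 49.6% in KO versus 34.9% in WT at 30 ppm, and at 55.7% versus 29.5% at 3 ppm. The differences of 14.7 and 26.2 points had Fisher's exact adjusted p = 0.00533 and 3.21e-11, and limma's adjusted p was 0.000165. With at least 10 reads per CpG the 30 ppm difference, 13.5 points, was not called. The Grm8 flanks (34 CpGs) stood at 52.6% versus 34.8% at 30 ppm, and at 50.5% versus 37.3% at 3 ppm, with Fisher's exact adjusted p = 2.51e-06 and 5.44e-05 and limma's adjusted p = 0.00469. The Grm8 start site itself was one of the 3 lowest, at 0.417%, 3.33%, 1.74% and 1.80% in KO 30 ppm, WT 30 ppm, KO 3 ppm and WT 3 ppm, and did not pass the test in either diet.

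**Figure D3:**
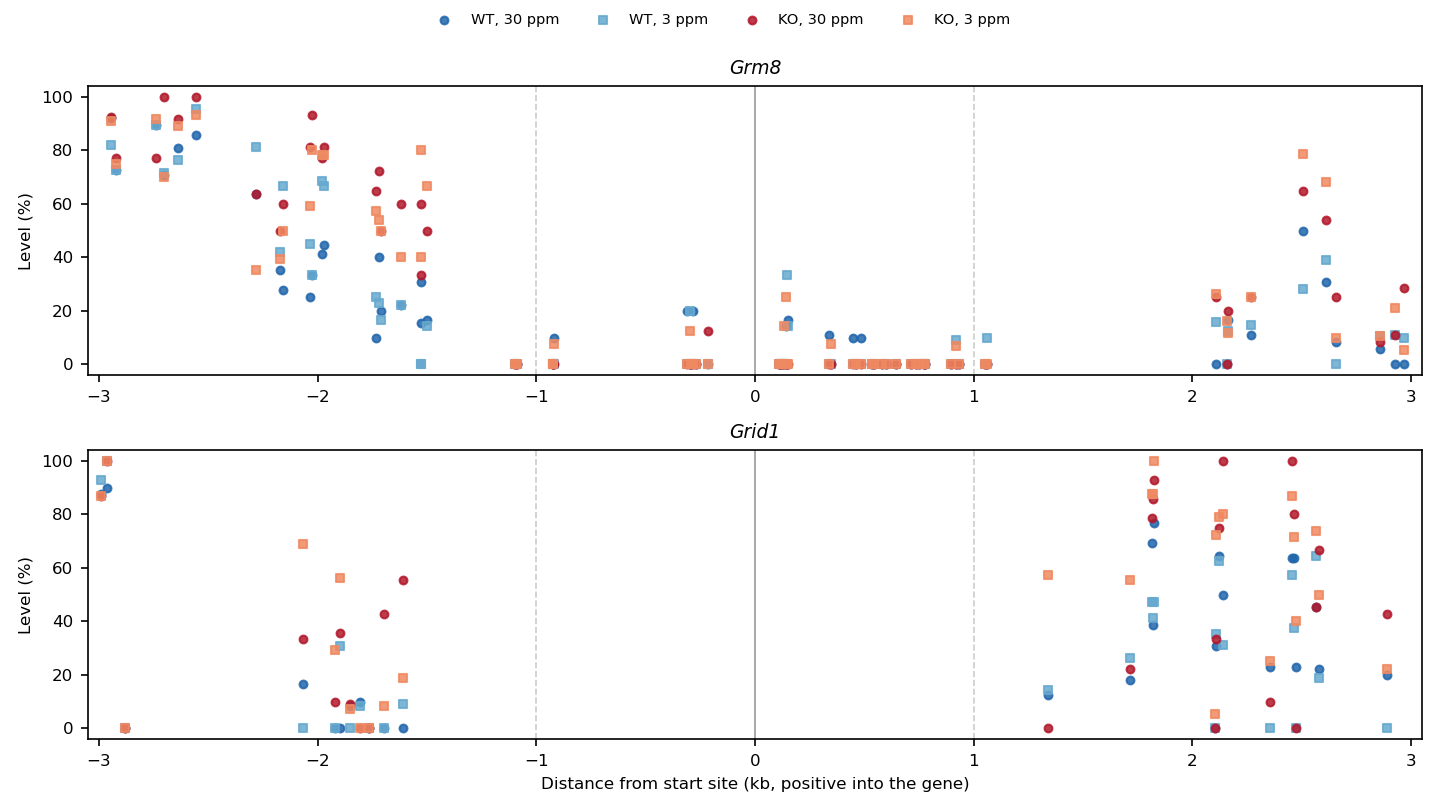
Level of each usable CpG in percent against its distance from the start site in kb (positive into the gene) for Grm8 and Grid1, with 1 point per library; dashed lines mark 1 kb. The flank levels of both genes are higher in KO in both diets, while the Grm8 start site lies near 0 in all 4 libraries and Grid1 has too few CpGs within 1 kb to be tested.

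Over all 44 genes, 14 flanks (31.8%) were called higher in KO at 30 ppm and 7 (15.9%) at 3 ppm, none lower, beside 9.5% and 7.05% of all genes. The median difference was 5.75 points at 30 ppm and 5.31 at 3 ppm, beside 3.01 and 1.69 over all genes. Both KO libraries were above both WT libraries at 29 of 44 (65.9%, all genes 49.3%). Limma called 13 of 44 (all genes 11.9%), all higher in KO, and with at least 10 reads per CpG it called 4 of 42 (all genes 3.57%). The Fisher count at 30 ppm fell to 9 of 42 with at least 10 reads (all genes 7.42%), to 8 of 44 after subtracting the median of all genes (4.63%) and to 3 of 44 with the z values over their robust SD (2.25%). The count at 3 ppm also became 3 with these z values (all genes 2.4%), and it was 11 once all libraries were thinned to the shallowest (6.69%). By side, 6 of 44 upstream flanks were called higher at 30 ppm and 5 at 3 ppm (all genes 5.21% and 4.56%), with 1 lower at 3 ppm. Downstream, 12 of 43 were called higher at 30 ppm and 15 at 3 ppm (all genes 12.4% and 10.5%), with 1 lower, Gabrr3 at 3 ppm.

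**Figure D4:**
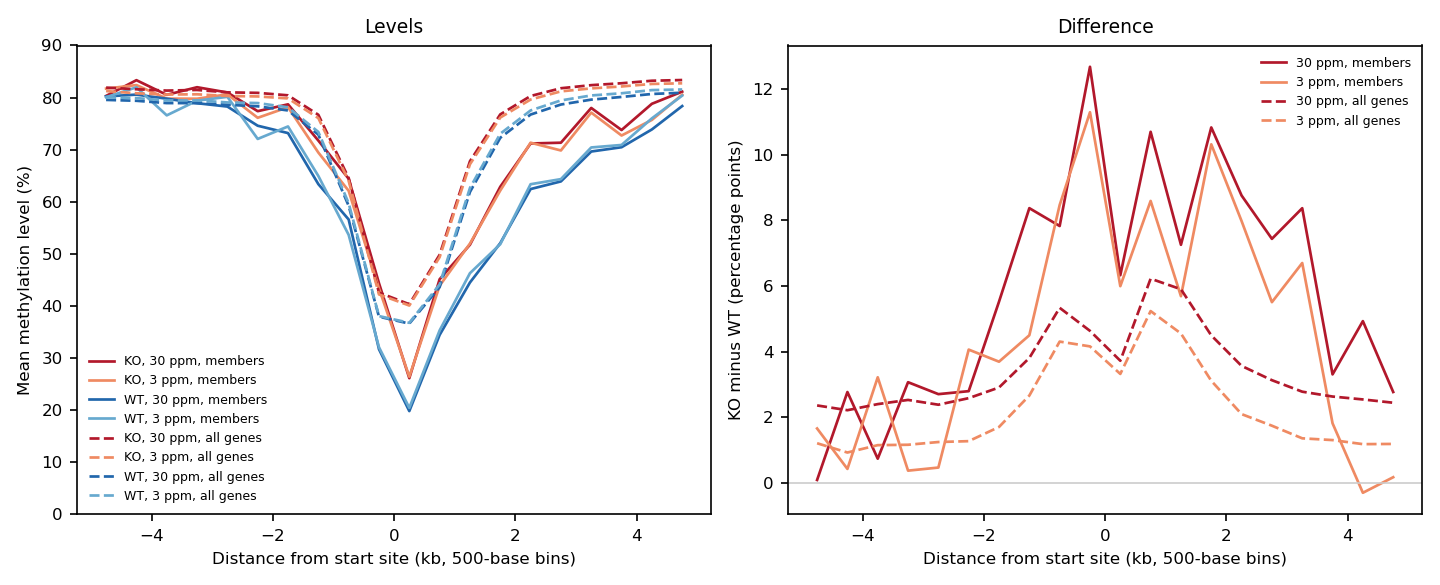
Mean methylation level in percent (left) and KO minus WT in percentage points (right) in 500-base bins from 5 kb before to 5 kb past the start site, for receptor genes (solid) and all genes (dashed), 1 line per library or diet; each bin averages the genes with usable CpGs there, 30 to 41 of the 44. The receptor genes reached 12.7 points at 30 ppm and 11.3 points at 3 ppm just before the start, and 10.8 and 10.3 points at 1.5 to 2 kb into the gene.

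Among the NMDA receptor genes, which encode calcium-permeable channels that need glutamate and a co-agonist, 3 of 7 start sites were called at 30 ppm and 4 of 7 at 3 ppm (all genes 15.4% and 16.6%). Grin2c, a GluN2 subunit gene of cerebellar granule cells, had the largest mean difference of the 8 genes called in both diets. Its start site (position 115267243 of chromosome 11, 12 usable CpGs of 111) stood at 57.9% in KO versus 33.0% in WT at 30 ppm, and at 54.1% versus 31.9% at 3 ppm. The differences of 24.9 and 22.1 points had Fisher's exact adjusted p = 0.0043 and 0.00119. Grin2c was also the 1 gene body called at 30 ppm, at 79.8% in KO versus 64.5% in WT (75.6% versus 66.9% at 3 ppm), a call that ended with at least 10 reads per CpG. The authors called a DMR 2344 bases past its start at 30 ppm, at 56.7% in KO versus 21.7% in WT, and the pair of the other diet read 52.7% and 36.0% there. Grin2a encodes GluN2A, the GluN2 subunit that rises after birth. Its start site stood at 26.8% in KO versus 12.3% in WT at 30 ppm, and at 28.3% versus 16.1% at 3 ppm (Fisher's exact adjusted p = 0.0143 and 0.00374). Grin2b, which encodes the GluN2 subunit of the embryonic brain, went the other way at its start site, with -4.44 and -4.61 points, and passed no test there. Grin1, the obligatory subunit, was called at its start at 30 ppm and in its body at 3 ppm, at 75.9% in KO versus 64.7% in WT. Limma did not call its start (adjusted p = 0.127), and with at least 10 reads per CpG the start difference at 30 ppm was 8.64 points and neither start nor body was called. Grin2d had the highest start-site level of all 42, with 95.7%, 98.6%, 98.5% and 97.0% in KO 30 ppm, WT 30 ppm, KO 3 ppm and WT 3 ppm. A DMR called in both diets lies between that start and the start of its longest coding transcript, but none of its CpGs had 5 reads in all 4 libraries. The window at the start of that transcript held too few usable CpGs to be scored, so the Grin2d level is that of the annotated gene start alone.

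Kainate receptors modulate transmitter release and excitability. At their start sites 1 of 4 tested genes was called at 30 ppm and 3 of 4 at 3 ppm (all genes 15.4% and 16.6%). Grik2, which encodes GluK2, was called in both diets, with 35.6% in KO versus 18.2% in WT at 30 ppm and 31.7% versus 20.8% at 3 ppm (Fisher's exact adjusted p = 0.00393 and 0.0431). Limma did not call it (adjusted p = 0.0696). Grik1 and Grik4, which encode GluK1 and the high-affinity subunit GluK4, were the 2 start sites called between diets, both in WT (4.76% of 42 genes, all genes 0.793% in either direction). Grik1 stood at 26.6% in WT on 30 ppm and 14.9% in WT on 3 ppm, while the KO libraries stood at 28.6% and 28.5%. Grik4 stood at 77.5% in WT on 30 ppm and 45.5% in WT on 3 ppm, with KO at 75.9% and 77.9%. Fisher's exact adjusted p was 0.0277 for Grik1 and 0.0311 for Grik4. Grik4 rests on 7 usable CpGs of 139 and 55 to 80 reads per library, and neither diet difference was called once 10 reads per CpG were required. Grik3 had one of the 3 lowest start sites, at 3.85% and 6.67% in KO and 0 in both WT libraries over 4 CpGs. In its flanks it stood at 15.1% in KO versus 7.09% in WT at 30 ppm and at 13.4% versus 7.82% at 3 ppm, differences under 10 points that limma called (adjusted p = 0.00143). Within those flanks the authors called a DMR 2116 bases past the start at 30 ppm, at 61.2% in KO versus 24.2% in WT, and the 3 ppm pair read 47.6% and 23.2% there.

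AMPA receptors carry most fast excitatory transmission. Of their 3 autosomal genes only Gria2, whose product makes the channel impermeable to calcium, was called at its start, at 30 ppm, with 45.9% in KO versus 34.7% in WT. The values at 3 ppm were 43.1% and 37.3%. Limma did not call it (adjusted p = 0.262), and with at least 10 reads per CpG the 30 ppm difference was 8.60 points and not called. With both sides of the flanks together no AMPA receptor gene was called, and upstream alone none was (0 of 3). Downstream alone, 2 of 3 were called higher in KO at 3 ppm and 0 at 30 ppm (all genes 10.5% and 12.4%). These were Gria2, at 14.4% in KO versus 2.95% in WT, and Gria4, at 50.1% versus 35.9% (Fisher's exact adjusted p = 1.08e-06 and 0.00117). DMRs called at 3 ppm lie 960 bases past the start of Gria1 and 1197 bases past that of Gria2, with 1 and 2 usable CpGs, too few to score. The DMR called at 3 ppm in the Grid1 flank, in a coding exon 2692 bases past the start, held 2 usable CpGs. The delphilin gene Grid2ip was called at its start in both diets, with 50.9% in KO versus 33.3% in WT at 30 ppm and 42.3% versus 20.5% at 3 ppm (Fisher's exact adjusted p = 0.00182 and 3.05e-06, limma's adjusted p = 0.0465). At the start of its longest coding transcript, 12754 bases further on, the differences were 30.4 and 26.3 points.

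Of the metabotropic glutamate receptor genes, 2 of 8 start sites (25.0%) were called at 30 ppm and 1 of 8 (12.5%) at 3 ppm, near the 15.4% and 16.6% of all genes. In the flanks 3 of 8 and 4 of 8 were called (all genes 9.5% and 7.05%). With at least 10 reads per CpG the Grm2 flank difference at 30 ppm went from 12.1 to -4.66 points and that of Grm7, a presynaptic group III gene, at 3 ppm from 13.4 to 0.645 points. Grm4, a presynaptic group III receptor gene, was called in both diets at its start, with 42.3% in KO versus 23.4% in WT at 30 ppm and 43.1% versus 27.3% at 3 ppm (Fisher's exact adjusted p = 0.00368 and 0.0138, limma's adjusted p = 0.0546). The start of its longest coding transcript lies elsewhere, and the window there held too few usable CpGs to be scored. Grm5, a group I gene, was called at its start at 30 ppm, with 61.2% in KO versus 38.6% in WT (57.6% versus 47.3% at 3 ppm). Limma did not call it (adjusted p = 0.0962), and with at least 2 reads per CpG the difference fell from 22.7 to 4.78 points and was not called. Grm2, a group II gene that lowers cAMP, had a DMR 1542 bases before its start called at 30 ppm, with 87.0% in KO versus 42.5% in WT, and 75.4% versus 38.7% in the 3 ppm pair. A second Grm2 DMR, called at 3 ppm 790 bases before the start, and a Grm6 DMR called at 30 ppm 1474 bases before its start held 0 and 1 usable CpGs. Grm6 encodes the receptor of retinal ON bipolar cells, and its flanks stood at 72.0% in KO versus 55.1% in WT at 3 ppm (60.8% versus 55.1% at 30 ppm). With at least 10 reads per CpG the 3 ppm difference was 9.06 points and not called.

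GABA-A receptors are chloride channels of 5 subunits, and their 16 autosomal genes form several clusters. At the start sites 6 of 16 were called at 30 ppm and 5 of 16 at 3 ppm (all genes 15.4% and 16.6%). Gabra2, Gabrg1, Gabra4 and Gabrb1 lie side by side on chromosome 5. Gabra2, an alpha subunit gene of the embryonic brain, stood at 23.8% in KO versus 9.76% in WT at 30 ppm, and at 21.7% versus 8.64% at 3 ppm (Fisher's exact adjusted p = 7.34e-06 and 1.77e-07, limma's adjusted p = 0.0311). A DMR called at 30 ppm 934 bases past its start stood at 57.4% in KO versus 23.9% in WT, and at 59.3% versus 27.3% in the 3 ppm pair. Gabrg1 stood at 20.1% in KO versus 7.17% in WT at 30 ppm, and at 22.2% versus 10.7% at 3 ppm (Fisher's exact adjusted p = 2.5e-06 and 9.25e-06, limma's adjusted p = 0.0359). The divergent genes Gabra4 and Gabrb1 start 195 bases apart, so their start-site windows share CpGs, and so do their flanks. Such CpGs count for both genes in the totals, also in those of the flanks. The Gabra4 window gave 0 methylated reads in all 4 libraries over 6 usable CpGs and 32 to 68 reads, which allows levels up to 10.7% (upper 95% Wilson limit). Gabrb1 stood at 18.7% in KO versus 7.34% in WT at 30 ppm, and at 29.8% versus 6.61% at 3 ppm, with limma's adjusted p = 0.0289. Since the shared part gave no methylated read, all methylated reads of the Gabrb1 window came from its unshared 195 bases. These lie at the end of the window inside the gene, and the usable CpGs nearer the start were unmethylated in KO and WT. Fisher's exact test called it at 3 ppm only (adjusted p = 4.31e-06), not at 30 ppm (11.3 points, adjusted p = 0.12), and with at least 2 reads per CpG the 3 ppm difference fell from 23.2 to 15.2 points. At the start of its longest coding transcript, 41819 bases further on, the differences were 1.85 points at 30 ppm and 14.1 at 3 ppm (Fisher's exact adjusted p = 0.792 and 1.66e-06). On chromosome 11, Gabrb2, a subunit gene of the most common adult receptor, stood at 55.5% in KO versus 36.7% in WT at 30 ppm and at 61.3% versus 35.6% at 3 ppm (Fisher's exact adjusted p = 0.00117 and 8.81e-07, limma's adjusted p = 0.0436). A DMR called at 3 ppm 492 bases before its start read 66.9% in KO versus 29.7% in WT, and 55.3% versus 35.7% in the 30 ppm pair. Another, called at 30 ppm 2238 bases past its start, read 71.3% in KO versus 28.8% in WT, and 74.5% versus 42.4% in the 3 ppm pair. In the flanks 6 of 16 GABA-A genes were called at 30 ppm and 0 at 3 ppm (all genes 9.5% and 7.05%). By side, 3 of 16 were called higher at 30 ppm and 1 at 3 ppm upstream (all genes 5.21% and 4.56%), and 2 and 3 of 16 downstream (all genes 12.4% and 10.5%), with 1 lower on each side at 3 ppm. Where the difference between the diets itself was tested, it was called for Gabrr3 among others. Gabrr2, a rho subunit gene of the retina, had the next highest start site after Grin2d, between 86.5% and 89.6%.

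The GABA-B genes Gabbr1 and Gabbr2 encode both partners of a G protein-coupled heterodimer. Neither start site was called. The Gabbr1 flanks stood at 83.3% in KO versus 73.4% in WT at 30 ppm, and at 86.5% versus 71.5% at 3 ppm, with limma's adjusted p = 0.000746. Gabbr2 was called in its flanks at 30 ppm, at 61.6% in KO versus 49.9% in WT. Limma did not call it (adjusted p = 0.256), and with at least 2 reads per CpG the difference was 5.45 points and not called.

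Between the KO libraries no start site or flank was called (all genes 1.2% and 0.452%), although 2 of 42 and 11 of 44 had an unadjusted Fisher's exact p under 0.05. Between the WT libraries no flank was called (all genes 0.594%), although 7 had such a p. How many of all genes had such an unadjusted p was not counted. In gene bodies, where reads are many, 16 of 44 in KO and 12 of 44 in WT had an adjusted Fisher's exact p under 0.05, with differences over all 44 of -2.15 to 5.02 points in KO and -2.72 to 1.29 points in WT. The share of all genes with such an adjusted p was not counted. No receptor gene body reached the 10 points needed for a call, which 0.111% of all genes did in KO and 0.194% in WT. Whether KO minus WT itself differed between the diets was asked with a Wald test of the log odds ratios, called at an adjusted p under 0.05 with no minimum difference. It called 0 of 42 start sites (all genes 1.35%) and 3 of 44 flanks (all genes 1.58%). Of the start sites 6 had an unadjusted Wald p under 0.05, a count not made over all genes. The Gabrr3 flanks stood at 77.9% in KO versus 74.1% in WT at 30 ppm, but at 73.0% versus 80.2% at 3 ppm. The Grin2b flanks stood at 71.1% versus 70.2% at 30 ppm, and at 77.0% versus 63.5% at 3 ppm. The adjusted Wald p was 0.0434 for Gabrr3 and 0.0462 for Grin2b, and this test too has 1 library per group.

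Gene bodies were highly methylated in all libraries, with medians of 84.9% to 85.9%, and differed little by genotype. Of 44 bodies, 1 was called higher in KO in each diet (2.27%, all genes 2.0% at 30 ppm and 1.75% at 3 ppm). Limma called 3 of 44 (all genes 7.46%), namely Grin2c, Grin1 and Grid2ip. KO minus WT had a median of 1.36 points at 30 ppm and of -0.386 at 3 ppm, beside 1.65 and 0.523 over all genes. The Wald test, which sets no minimum difference, called 23 of 44 bodies (52.3%, all genes 15.0%). In each of them KO minus WT was higher at 30 ppm, by 1.09 to 6.52 points and a median of 1.80, so these calls cannot be set beside those that need 10 points. Over all genes 2597 of the 2703 bodies called by this test went the same way, with a median of 2.08 points over the 2703. The direction thus does not set the receptor genes apart. The receptor genes are long and their bodies held a median of 54557 reads over the 4 libraries, against 9718 over all genes. Among the 25% of genes with the most reads, the shares called were 72.4% and 41.9%.

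The authors' hyper DMRs fell in 21 of the 44 genes, counting the gene and the 3 kb before it. At each diet 18 genes (40.9%) had one, beside 11.6% of all genes at 30 ppm and 11.9% at 3 ppm, and 15 genes (34.1%) had one at both, beside 7.13% of all genes. These 15 are 83.3% of either set, where over all genes the shared ones are 61.2% of the 30 ppm set and 59.8% of the 3 ppm set. This sharing is by gene and not by region. Of the 29 regions at 30 ppm 13 overlapped a region at 3 ppm, and of the 27 at 3 ppm 12 overlapped a region at 30 ppm. Gabrb2, Grik3, Grin2c, Grm2 and Grm5 had regions at both diets, none of which overlapped one of the other diet. Overlap of regions was not counted over all genes. The receptor genes are long, with a median of 129.8 kb against 17.6 kb over all genes, and DMRs per Mb did not exceed the background. They were 2.39 at 30 ppm and 2.22 at 3 ppm, against 2.95 and 3.10 over all genes. Among genes of 100 kb or more, 9 of 24 receptor genes (37.5%) had a DMR at 30 ppm and 11 of 24 (45.8%) at 3 ppm, against 26.9% and 25.3% of all such genes, and 8 (33.3%) had one at both, against 16.2%. Length is not matched in this class, with a median of 402.7 kb for the receptor genes against 168.9 kb for all. Here the receptor genes had 1.42 DMRs per Mb at 30 ppm and 1.25 at 3 ppm, against 1.66 and 1.59 for all such genes. Within 3 kb of the start 8 genes (18.2%, all genes 5.29%) had one at 30 ppm and 7 (15.9%, all genes 6.07%) at 3 ppm. Of the 29 regions at 30 ppm 15 were intronic and 7 touched a coding exon, and of the 27 at 3 ppm 10 were intronic and 11 touched a coding exon. No region of lower methylation in KO fell on these genes, but over all genes too such regions were rare (0.12% at 30 ppm and 0.0817% at 3 ppm). The same holds for the regions of the diet comparisons, which were at 0 of the 44 and, over all genes, at 0.346% (higher at 30 ppm) and 0.187% (lower) in KO and at 0.24% and 0.178% in WT.

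A region called in one diet was scored in the pair of the other diet, which took no part in its calling. Of 16 regions called at 30 ppm alone, 11 could be scored at 3 ppm, and all 11 were higher in KO there, by 8.66 to 36.7 points and a median of 24.3. Of 15 regions called at 3 ppm alone, 6 could be scored at 30 ppm, and all 6 were higher in KO, by 11.9 to 38.6 points and a median of 19.3. DMRs at other genes were not scored in this way. These counts thus have no share over all DMRs beside them and do not set the receptor genes apart. In Grin2a a region called in both diets, in an intron 158805 bases from the start, stood at 82.7% and 83.1% in KO and at 43.1% and 48.3% in WT.

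**Figure D5:**
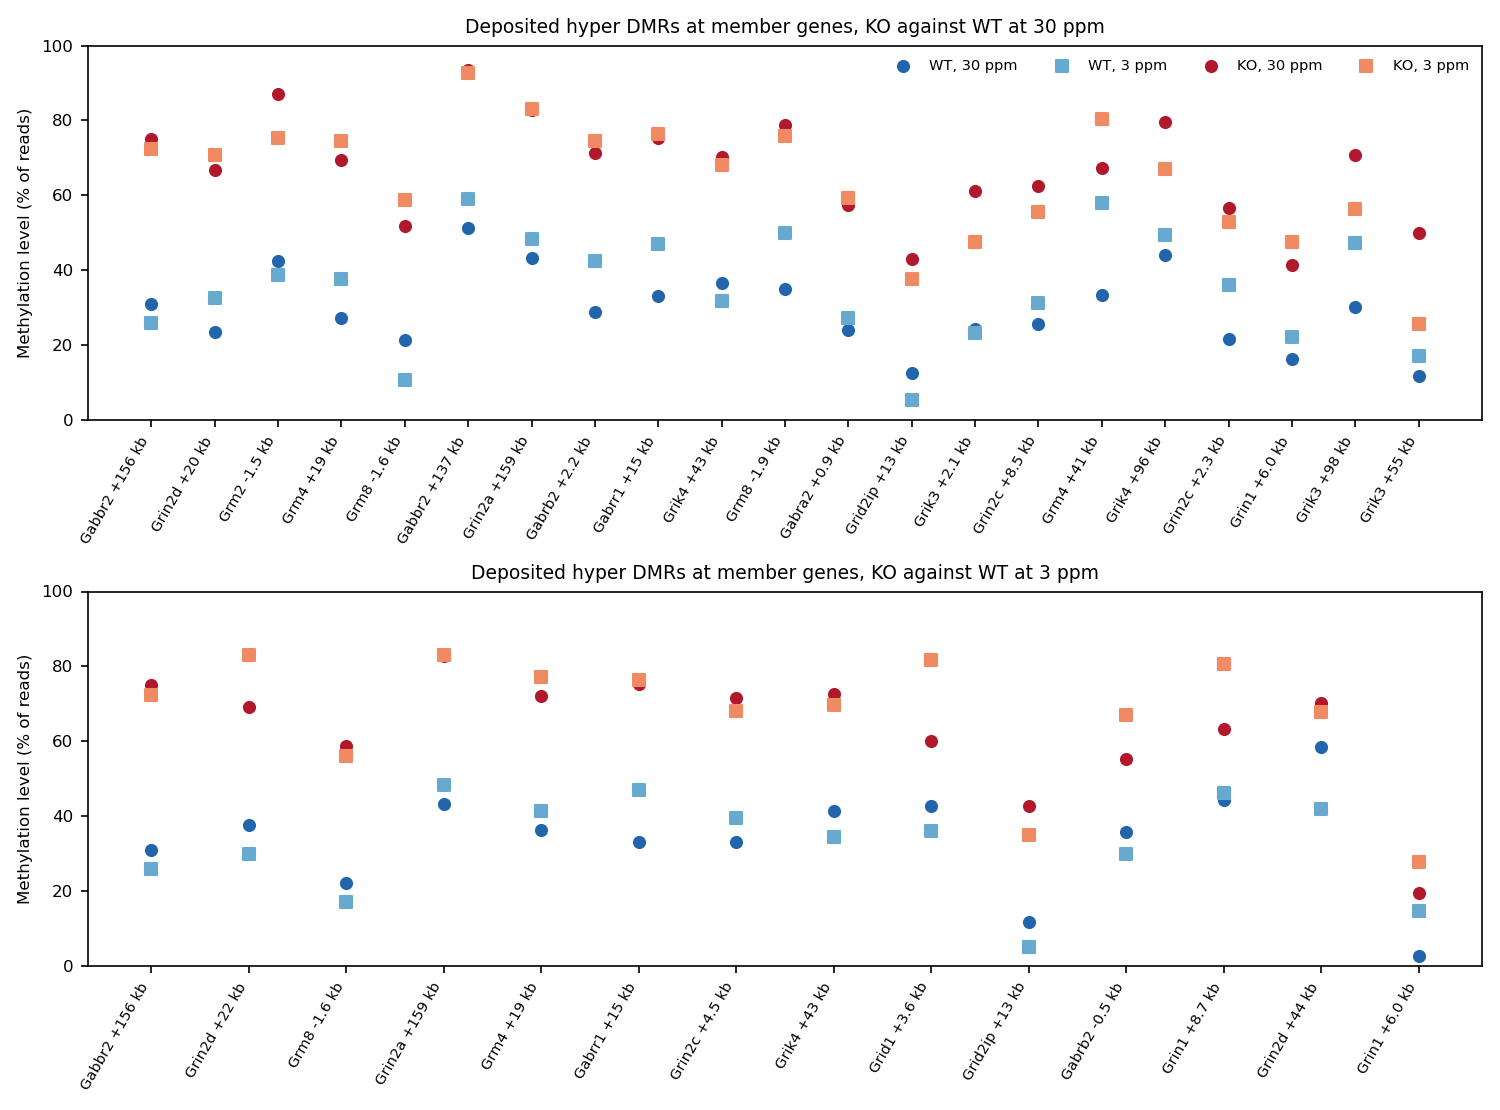
Methylation level in percent of each scored hyper DMR at a receptor gene, called at 30 ppm (top, 21 regions) or at 3 ppm (bottom, 14 regions), with 1 point per library and the distance of the centre from the start site beside the gene name; regions are ordered by mean KO minus WT. Both KO points lie above both WT points in all 21 and all 14 regions. The regions were chosen by the comparison named above each panel, and DMRs at other genes were not scored.

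The other genes of glutamate and GABA signalling were given by a list of 48 partners: enzymes, transporters and anchoring proteins. At the start site 8 of 46 tested partners (17.4%) were called higher in KO at 30 ppm and 15 of 46 (32.6%) at 3 ppm, beside 15.4% and 16.6% of all genes, none lower. In both diets 7 of 46 (15.2%) were called, beside 8.01% of all genes. Those 7 were Aldh5a1, whose enzyme oxidises the succinate semialdehyde made from GABA, the transporter genes Slc6a13 and Slc17a8, the AMPA receptor auxiliary subunit genes Cacng2, Cnih3 and Gsg1l, and Lhfpl4, which anchors GABA-A receptors. Gsg1l stood at 55.1% in KO versus 27.4% in WT at 30 ppm, and at 58.4% versus 25.0% at 3 ppm. In the flanks 11 of 48 (22.9%) and 8 of 48 (16.7%) were called (all genes 9.5% and 7.05%), and 7 of 48 (14.6%) in both diets (all genes 3.5%, receptor genes 6.82%). The 92 autosomal Kcn potassium channel genes, another family of neuronal membrane proteins, had 27 of 89 start sites (30.3%) called at 30 ppm and 33 of 89 (37.1%) at 3 ppm, and 39.1% and 37.0% of the 92 genes had a hyper DMR. In both diets 20 of 89 Kcn start sites (22.5%) and 13 of 92 flanks (14.1%) were called, beside 19.0% and 6.82% for the receptor genes.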

How the data were processed

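WGBS of 4 single-embryo libraries (KO and WT at 30 and 3 ppm FA) was used. Per the study's methods and the submitters' processing notes, the authors trimmed reads with Trim Galore 0.6.10, aligned them with Bismark 0.23.1 to mm10 (GRCm38.p6), removed duplicates and merged both strands of each CpG. Each deposited table gives the methylated fraction (0 to 1) and the deposited read count per CpG; their product, rounded, gave methylated reads (within 4.37e-11 of whole numbers). CpGs listed had at least 2 reads. The authors called DMRs with DSS between single libraries and deposited positions only (unit other), so DMR levels were computed here.

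Gene starts came from GENCODE vM21, sequences from the GRCm38 RefSeq assembly. Reads were summed per window over CpGs covered 5 times or more in each library, at 3 or more such CpGs. Fisher's exact tests (two-sided) compared KO with WT within each diet and diets within each genotype. A Wald test (0.5 added to each count) compared KO minus WT between diets. Limma 3.58.1 (R 4.3.3) fitted log2((methylated + 1)/(unmethylated + 1)) on genotype and diet over all 4 libraries. P-values were Benjamini-Hochberg adjusted over all autosomal protein-coding genes per window. The scripts were tested on simulated data. Intervals cover counting error only, since each group is 1 library. Reads carry no molecular identifiers, and reads of 1 molecule count at each CpG they cover, so the intervals are too small. CpG-rich, intermediate and CpG-poor starts were set by the observed to expected CpG ratio and GC content in 500-base windows (above 0.75 and 55%, under 0.48 for poor). Lists of partner and marker genes and the Kcn genes served for comparison.

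Members and lists were chosen with earlier results of these data known. Named in full were genes called in both diets at the start or flanks, genes with a DMR there, genes called between diets or by the Wald test, and the 3 highest and 3 lowest start-site levels. Results for 3 of the genes are not reported here by name and are left out of single-gene plots, but count in totals. Other genes named, those called in 1 diet or in the body, and the partner genes, were chosen after their values were seen. Other read minimums, thinning, window bounds, centring, thresholds and limma scales were tried.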

Additional observations from a re-analysis of the deposited data

Results flagged for a closer look

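In 3 of 44 flanks KO minus WT differed between the diets by the Wald test. The difference at 30 ppm less that at 3 ppm was 11.0 points for Gabrr3 and -12.6 points for Grin2b. For Gabrr3 it was 14.7 points downstream and 3.11 points upstream. For Grin2b it was -16.1 points downstream and -4.65 points upstream. The Wald test called neither gene on either side alone. With at least 10 reads per CpG the Wald test called 1 of 42 flanks, and after thinning to the shallowest library 1 of 44 (all genes 0.211% and 0.531%).

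The Wald test, with no minimum difference, also called 23 of 44 gene bodies. Over all 44 bodies KO minus WT was above 0 at 43 genes at 30 ppm and at 16 genes at 3 ppm, and over all 18024 genes at 15241 and 11419. Genome-wide mean CpG levels were 83.5% in KO versus 81.4% in WT at 30 ppm, and 82.8% versus 82.1% at 3 ppm. The part of this shift and of read number in the body calls was not tested, and with 1 library per group diet and embryo cannot be told apart.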

How the results depend on the processing

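Counts are of receptor genes, and percentages in parentheses are the share of all genes called under the same setting (for diet differences, of all windows). With at least 10 reads per CpG, 5 of 29 start sites were called in both diets (6.48%), 9 of 42 flanks at 30 ppm (7.42%), 1 of 42 flanks by the Wald test (0.211%), 0 bodies in each diet (1.37% and 0.955%) and 0 WT diet differences (0.18%), and limma called 0 start sites (0%) and 4 of 42 flanks (3.57%). The Grm2 flank difference at 30 ppm then turned to -4.66 points. With at least 2 reads, 4 start sites were called by the Wald test (3.14%), 6 flanks (3.43%) and 1 body (0.836%) in both diets, and 1 KO (1.02%) and 4 WT (1.13%) diet differences. Thinned to the shallowest library, 11 flanks were called at 3 ppm (6.69%), 1 by the Wald test (0.531%) and 0 WT diet differences (0.32%). After subtracting the median over all genes, 8 start sites at 3 ppm (10.6%), 4 in both diets (4.83%) and 8 flanks at 30 ppm (4.63%) were called. With Fisher z over its robust SD, 1 start site (2.43% and 3.11%) and 3 flanks (2.25% and 2.4%) were called in each diet, 0 in both (1.02% and 0.835%), and 0 WT diet differences (0.139%). With differences of at least 20 points, 4 and 5 start sites (3.75% and 3.82%), 1 of them in both diets (1.59%), 1 and 2 flanks (0.614% and 0.52%), 0 in both (0.216%), 0 bodies in each diet (0.277% and 0.333%) and 1 WT diet difference (0.0326%) were called. Within 500 bases, 8 of 36 start sites were called at 30 ppm (7.38%). The upstream side alone gave 6 flanks at 30 ppm (5.21%) and the downstream side alone 15 of 43 at 3 ppm (10.5%) and 9 in both diets (5.41%). Limma called 5 start sites with a pseudocount of 0.5 (4.32%), and 0 start sites (0%) and 5 bodies (8.29%) on fractions. The other 78 counts stayed within 1.5 times. Of single-gene values, 277 kept their direction and call, 155 kept the direction only and 1 reversed. The causes were not tested. No paired analysis was possible because each group is 1 library and each embryo came from its own litter. Limma, with diet as covariate, compared the genotypes within diets. Leaving out a library leaves the other diet's pair as reported and none for its own diet.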
